A study of Mus musculus with 8 samples.

Results

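Broad RelA peaks are the widest stretches of mouse genome that were recovered with RelA (p65), the NF-kB subunit that carries a strong transcription activation domain. They were chosen by width alone: peaks on chromosomes 1 to 19 whose end minus start was 1100 bp or more. The rule kept 492 of 9829 peaks in the series, or 5.08% of the 9688 peaks on those chromosomes, and the other 9196 served for comparison. Wild-type C57BL/6 mouse embryos were the source of the cells, primary fibroblasts in culture (MEFs), which were kept in low serum overnight before stimulation. TNF was used at 10 ng/ml, with 2 RelA ChIP libraries each at 0, 0.5 and 3 h, and input DNA gave 2 more. Proteins were fixed with disuccinimidyl glutarate followed by formaldehyde, and DNA was sheared to 250 to 1000 bp. Libraries were made without size selection. The labels do not say how many embryos or cultures were used, and fibroblast identity could not be checked because RNA was not measured. The peak list is common to all libraries and gives positions on mm10 only. Peak height, time of binding, depth and spread between replicates were therefore unknown, and no control level can be set beside the values. Every test compares groups of peaks within this 1 list and says nothing about the spread between cultures.

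In resting cells, dimers that contain RelA are held in the cytoplasm by I-kappa-B proteins. TNF activates the IKK kinases, I-kappa-B is degraded, and RelA enters the nucleus, where it binds kappaB sites in promoters and enhancers of inflammatory and survival genes. Several of those genes encode I-kappa-B proteins, NF-kB subunits or A20, so the pathway feeds back on itself. A peak in ChIP-seq marks where fragments pile up. It is far wider than the kappaB site itself.

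The following promoters, most of them at genes of the NF-kB pathway, are examples of broad peaks with a kappaB match beneath them. Such a match was present for 22 of the 106 broad peaks that covered a coding start site. A script searched RefSeq windows that run from 250 bases before to 50 after each annotated start site (GRCm38.p6, the assembly of mm10) for the kappaB consensus on both strands. Each stretch is given 5′ to 3′ on the strand of the gene, and capitals mark the match or the overlapping matches. The first 4 end at the base before the start site, and the Bcl10 and Mdfic stretches begin 250 bases before it. The genes were picked after their matches were seen. Nfkb2 (precursor of p52), Rel (c-Rel), Nfkbia (I-kappa-B alpha) and Bcl10 (an adaptor that leads antigen receptor signals to IKK) act in the pathway. Cxcl1 is a chemokine for neutrophils, and Mdfic is named for the MyoD family inhibitor domain of its protein.
Nfkb2, chr19:46304687-46304736, plus strand: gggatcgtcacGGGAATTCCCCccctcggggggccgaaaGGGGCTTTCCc
Rel, chr11:23770970-23771089, minus strand: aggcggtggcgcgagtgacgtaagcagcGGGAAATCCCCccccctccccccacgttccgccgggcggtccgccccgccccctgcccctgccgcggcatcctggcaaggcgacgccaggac
Nfkbia, chr12:55492648-55492767, minus strand: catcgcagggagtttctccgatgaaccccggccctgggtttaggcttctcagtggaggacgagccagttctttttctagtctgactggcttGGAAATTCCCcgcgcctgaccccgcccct
Cxcl1, chr5:90891125-90891244, plus strand: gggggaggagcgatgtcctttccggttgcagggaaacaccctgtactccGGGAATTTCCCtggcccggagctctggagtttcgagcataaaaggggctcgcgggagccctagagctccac
Bcl10, chr3:145924012-145924131, plus strand: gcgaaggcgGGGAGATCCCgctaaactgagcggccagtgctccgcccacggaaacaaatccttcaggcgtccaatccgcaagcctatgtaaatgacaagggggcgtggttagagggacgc
Mdfic, chr6:15720411-15720530, plus strand: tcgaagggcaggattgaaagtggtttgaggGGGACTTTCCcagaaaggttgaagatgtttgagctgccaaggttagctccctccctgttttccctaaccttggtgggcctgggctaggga

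In Nfkb2 the window held 3 matches, which begin 39, 38 and 11 bases before an annotated start site inside the gene, and the 1610 bp peak spans 486 bp upstream to 1123 bp downstream of that site. In Rel the matches begin 92 and 91 bases before the start, under a 1281 bp peak. The Nfkbia match begins 29 bases before the start, under a 1126 bp peak that reaches 753 bp upstream and 372 bp downstream. The Cxcl1 matches begin 71 and 70 bases before it. The matches of Bcl10 and Mdfic lie farther out, 241 and 220 bases before the start. A match is a description of letters, not evidence that RelA contacts them.

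**Figure D1:**
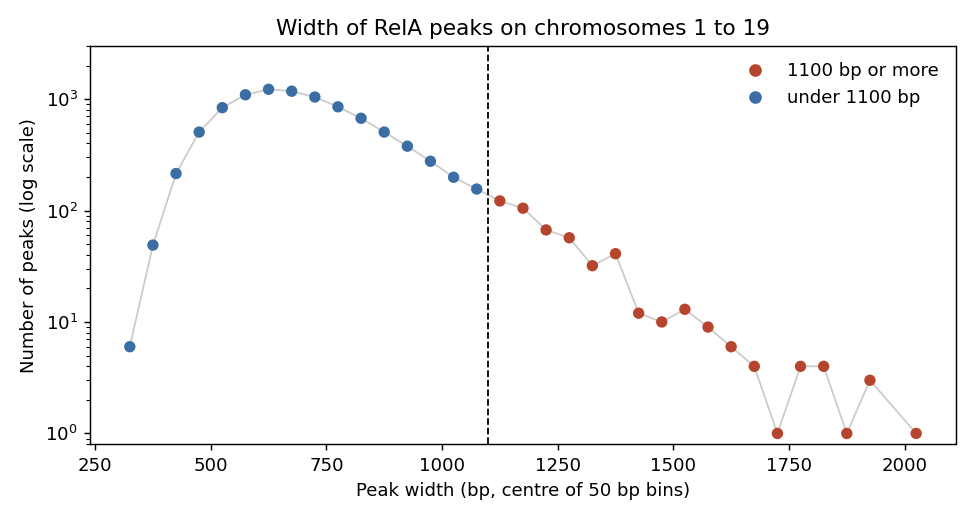
Number of RelA peaks on chromosomes 1 to 19 (log scale) by width in bins of 50 bp. The dashed line is the width minimum of 1100 bp. The counts fall without a break across it, from 156 peaks at 1050 to below 1100 bp to 122 in the next bin.

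The widths describe a tail and not a separate population. Broad peaks had a median width of 1211 bp (quartiles 1150 and 1324 bp), against 677 bp for the other peaks (quartiles 582 and 793 bp). They covered 0.621 Mb, or 8.86% of the sequence under autosomal peaks. There were 265 peaks of 1200 bp or more, 68 of 1400 bp or more, 9 of 1800 bp or more and 1 above 2000 bp. Just inside the minimum, at 1100 bp, were peaks nearest to Rnf213, a ubiquitin ligase (0.258 kb), to Sp3, a GC box binding factor (80.2 kb), and to Medag (20.3 kb). Just outside it were peaks of 1099 bp nearest to Rasgef1a (24.9 kb) and of 1098 bp nearest to Nmbr and Adamts5 (621 and 289 kb).

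Broad peaks lay at gene ends about 2 times as often as the other peaks. The peak centre was used for this comparison, so that a wide peak does not reach a gene by its width. Of the broad peaks, 161 (32.7%, Wilson 95% interval 28.7 to 37.0%) had their centre no farther than 1 kb from an end of some gene, coding or not, against 1512 of 9196 others (16.4%, 15.7 to 17.2%). The odds ratio was 2.47 (95% interval 2.02 to 3.02, adjusted p = 9.42e-17 by two-sided Fisher's exact test over 8 comparisons). For protein-coding genes alone the shares were 25.8% and 11.9% (odds ratio 2.58, adjusted p = 8.78e-16 by Fisher's exact test). The ends were mostly starts. On the chromosomes with start sites in the RefSeq table (all but chromosome 18), 114 of 472 broad peaks (24.2%) were centred within 1 kb of a coding start site, against 948 of 8832 others (10.7%, odds ratio 2.65, adjusted p = 3.21e-15 by Fisher's exact test). Of 124 broad peaks at coding gene ends there, 98 were within 1 kb of a start site and 26 were not, and a further 16 lay at a start site inside a gene. With a width minimum of 1400 bp, the start-site comparison no longer passed Fisher's exact test (20.3% against 11.4%, adjusted p = 0.0716). Neighbouring peaks are not independent of each other, which the test does not model.

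Away from gene ends, no difference was detected in how broad and other peaks divided between gene bodies and intergenic sequence. Every peak was counted as at a gene end, inside a gene or between genes, so a higher share at ends lowers the other shares. Of the 331 broad peaks over 1 kb from any gene end, 190 (57.4%, Wilson 95% interval 52.0 to 62.6%) lay inside a gene, against 56.4% of 7684 others (odds ratio 1.04, 95% interval 0.831 to 1.31, adjusted p = 0.734 by Fisher's exact test over 2 comparisons chosen after seeing the data). Over all peaks, 190 broad ones (38.6%) were centred inside a gene and over 1 kb from its ends, against 47.1% of the others (odds ratio 0.707, adjusted p = 4.87e-04 by Fisher's exact test). This difference no longer passed the exact test with a minimum of 1200 bp (40.4% against 46.8%, adjusted p = 0.0525) or 1400 bp (42.6% against 46.7%, adjusted p = 0.621). The longest gene around the broad peaks inside genes had a median length of 113 kb, against 118 kb for the others. Between genes lay 141 broad peaks (28.7%) against 36.5% of the others (odds ratio 0.700, adjusted p = 6.81e-04 by Fisher's exact test). Farther than 100 kb from every coding gene end, within genes or between them, lay 88 (17.9%) against 22.3% (odds ratio 0.759, adjusted p = 0.0294 by Fisher's exact test). Among peaks over 1 kb from a coding gene end, these shares were 24.1% and 25.3% (odds ratio 0.938, 95% interval 0.725 to 1.20, adjusted p = 0.734 by Fisher's exact test). Set against other peaks of at least the median width only, the difference over all peaks did not pass the exact test either (17.9% against 21.7%, adjusted p = 0.0735). The median distance to a coding gene end was 15.7 kb for broad peaks and 27.9 kb for the others.

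**Figure D2:**
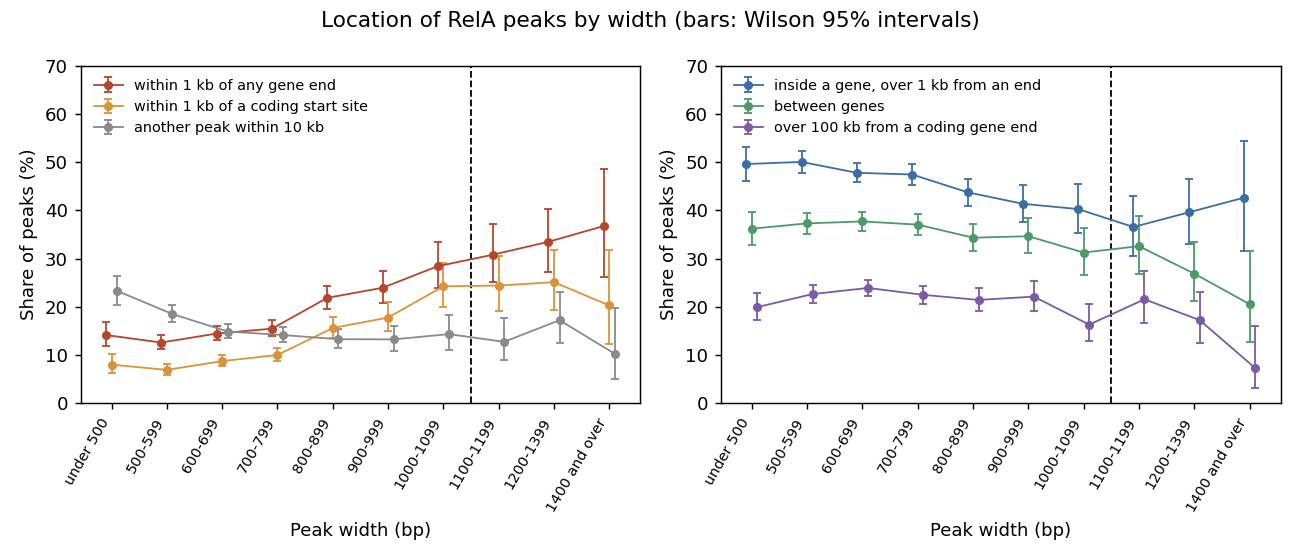
Share of peaks (percent) in each location by peak width in bp. Points are shares, bars are Wilson 95% intervals and the dashed line is the minimum of 1100 bp. The share within 1 kb of any gene end is 12.6% from 500 to below 600 bp and 36.8% at 1400 bp and over, and most of the climb lies below 1100 bp.

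The gene-end share was higher in each wider class from 800 bp on and showed no step at 1100 bp. The share within 1 kb of any gene end was 12.6% of peaks from 500 to below 600 bp, 15.5% from 700 to 800 bp, 24.0% from 900 to 1000 bp and 28.5% from 1000 to 1100 bp. Within the broad peaks it was 30.8% from 1100 to 1200 bp, 33.5% from 1200 to 1400 bp and 36.8% of the 68 widest (26.3 to 48.6%), with intervals that overlap. The share over 100 kb from a coding gene end was lowest in those 68, at 7.35% (3.18 to 16.1%). With the minimum set at 1400 bp, this comparison gave an odds ratio of 0.278 (adjusted p = 0.00731 by Fisher's exact test).

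No difference between broad and other peaks was detected in company within 10 kb. Another peak of any width lay within 10 kb of 70 broad peaks (14.2%) and of 15.9% of the others (odds ratio 0.878, 95% interval 0.668 to 1.14, adjusted p = 0.342 by Fisher's exact test). Within 5 kb, however, the shares were 2.03% and 6.55% (odds ratio 0.296, adjusted p = 1.87e-05 by Fisher's exact test). Width chose the groups, and a wide peak itself leaves less room for a close neighbour. How far this lowers the share within 5 kb was not tested. By width, the share with a neighbour within 10 kb was 23.3% under 500 bp and 14.9% from 600 to 700 bp. Among broad peaks alone, 8 had another broad peak within 10 kb and 33 had one within 50 kb. By chromosome, the share of peaks that were broad ran from 3.60% on chromosome 7 to 6.60% on chromosome 8, and the Wilson intervals of these extremes overlap (2.34 to 5.50% and 4.74 to 9.12%).

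Among promoters, 106 broad peaks covered the nearest coding start site. As a group they extended about evenly to both sides, although single peaks, such as that of Traf6 (69 bp upstream, 1231 bp downstream), did not. Their centres lay between 255 bp upstream and 243 bp downstream of the start (quartiles, median 37 bp downstream), and 51 of the 106 were centred upstream. They reached a median of 581 bp upstream and 644 bp downstream, against 366 and 384 bp for the 692 other peaks that covered a start site. The centres of those other peaks lay closer to the start, with quartiles of 131 bp upstream and 141 bp downstream. Every peak here covers its start site, so a narrower one is bound to have a closer centre and a shorter reach. Width chose the groups, so these differences in reach and centre are not a separate result. Start sites on both strands within 500 bp of the centre, as at divergent gene pairs, were found for 7 broad (6.60%, Wilson 95% interval 3.24 to 13.0%) and 51 other peaks (7.37%, 5.65 to 9.56%). The Psme2 peak was among those 7.

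**Figure D3:**
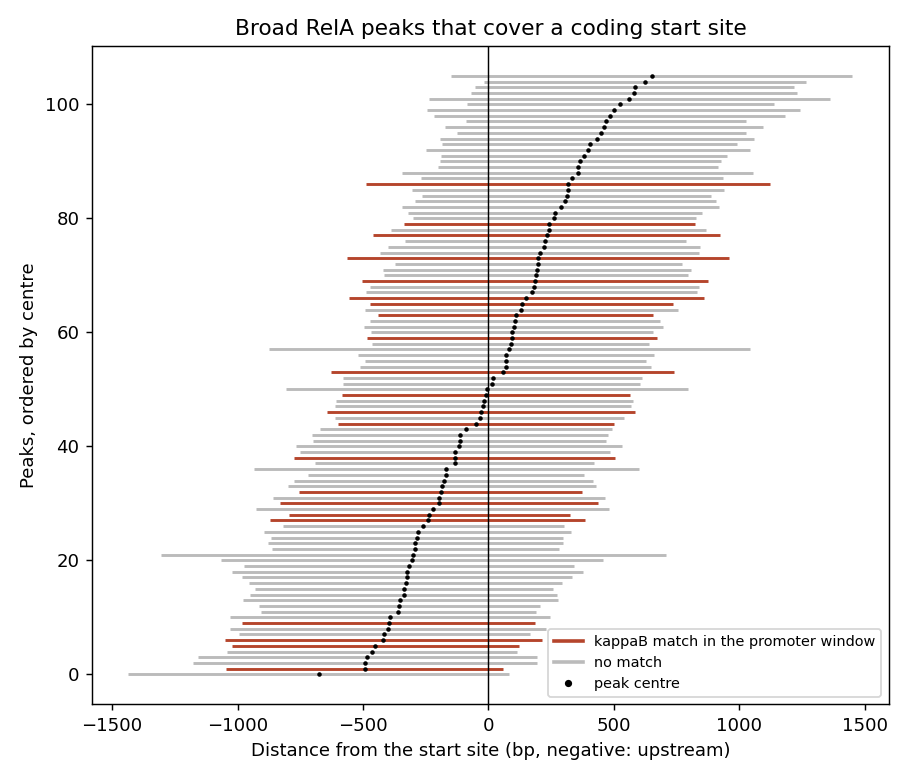
Extent of the 106 broad peaks that cover a coding start site, as distance in bp from that site in the direction of transcription, 1 line per peak. Red lines mark the 22 peaks whose 300-base promoter window holds a kappaB match, dots are peak centres, and 51 centres lie upstream.

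No difference in kappaB matches within 300 bases at the start site was detected between wide and narrower peaks. The same 300 bases were searched in both groups. They take in a smaller part of a broad peak, and sequence beyond them was not read. A match stood in the window of 22 of 106 broad peaks (20.8%, Wilson 95% interval 14.1 to 29.4%) and of 177 of 692 others (25.6%, 22.5 to 29.0%). The odds ratio was 0.762 (95% interval 0.440 to 1.28, adjusted p = 0.342 by Fisher's exact test). For reference, 4.93% of all 20085 coding windows held one. The matched windows were not limited to immune genes. They included Atg16l2 (autophagy, matches at 42 and 41 bases before the start), Fzr1 (an activator of the anaphase-promoting complex, 21 and 20 bases) and Set (a histone chaperone, 65 bases), all named after their matches were seen. No match was found in the windows of Rela, Traf6, Psmb10, Psme2, Gbp3, Peak1 or Zfp62, which says only that these letters are absent from 300 bases. A looser pattern, 3 G and 2 C, or 2 G and 3 C, around 5 free bases, was present in 81.1% and 80.8% of windows.

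**Figure D4:**
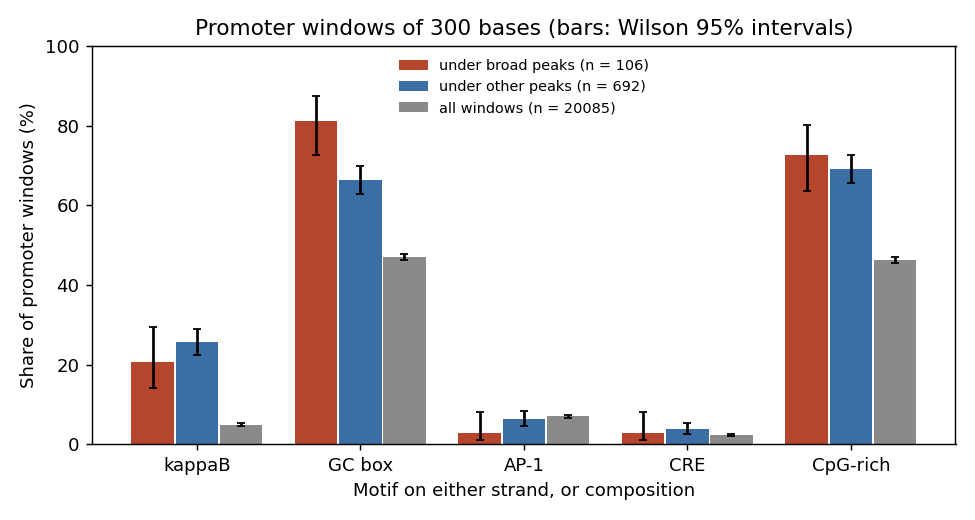
Share of 300-base promoter windows (percent) with each motif on either strand, or rich in CpG, under broad peaks, under other peaks and in all coding windows. Error bars are Wilson 95% intervals. The kappaB bars of both peak groups (20.8 and 25.6%) stand above that of all windows (4.93%).

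The GC box, the binding motif of Sp family factors, did differ. The letters GGGCGG on either strand were in 86 of 106 windows under broad peaks (81.1%, 72.6 to 87.4%), in 66.3% of those under other peaks and in 47.0% of all windows. Broad against other peaks gave an odds ratio of 2.18 (95% interval 1.29 to 3.84, adjusted p = 0.0140 by Fisher's exact test over 6 features chosen after seeing the data). The GC content moved with it, with medians of 64.8%, 61.7% and 57.0%, and its part in the result was not tested. CpG-rich windows, with GC above 50% and a CpG ratio above 0.6, made up 72.6% and 69.2% (odds ratio 1.18, 95% interval 0.736 to 1.94, adjusted p = 0.997 by Fisher's exact test). CCAAT was in 34.9% and 35.5%, and TATAAA in 6.60% and 7.37%. The AP-1 motif TGANTCA was in 2.83% and 6.21%, and the cAMP response motif TGACGTCA in 2.83% and 3.76%. None of these 4 passed Fisher's exact test (adjusted p from 0.778 to 1.00), although with 3 broad windows each the AP-1 and cAMP intervals were wide (odds ratio 0.0857 to 1.42 for AP-1).

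Genes near broad peaks were then read by pathway. Of 20665 protein-coding genes on chromosomes 1 to 19, 313 (1.51%) had a broad peak centred within 10 kb of an end, and these were 8.58% of the 3650 genes with a peak of any width there. In 10 lists on NF-kB, TNF and inflammation, 18 of 164 genes (11.0%) had a broad peak and 105 had any peak, so 17.1% of the peak-bearing genes had a broad one. The lists were written with earlier results on these peaks known, so these shares are a description without a test.

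Among NF-kB subunits and their kinases, 3 of 10 genes had a broad peak, all of them subunits. Beside Rel and Nfkb2, the Rela peak of 1521 bp spans 1064 bp upstream to 456 bp downstream of the RefSeq start site, with its centre 304 bp upstream. A match was found in the Rel and Nfkb2 windows and not in that of Rela. The list had 9 genes with a peak of any width, and the remaining genes had narrower peaks only.

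Among inhibitors and negative feedback genes, 12 of 14 had a peak within 10 kb and 2 a broad one. These were Nfkbia and Zfp36 (tristetraprolin, which promotes decay of cytokine mRNAs), with a 1579 bp peak at chr7:28380804-28382382 between genes, 2.37 kb from its end. Within 50 kb, 3 genes of this list had a broad peak. Distance was taken to gene ends, so a peak inside a gene but over 10 kb from its ends was not counted. An example is the 1104 bp broad peak inside Nfkbiz, 10.8 kb from its end. In TNF receptor signalling, 11 of 17 genes had a peak and 4 a broad one. The adaptor genes Traf6 and Traf2 had peaks of 1301 and 1222 bp at 0.581 and 2.49 kb. Traf6 is a ubiquitin ligase of Toll-like and interleukin-1 receptor signalling, and its peak lies almost wholly downstream of the start site (69 bp upstream, 1231 bp downstream). Tab1, a partner of the kinase TAK1, had an 1128 bp peak at 5.29 kb.

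The remaining gene, Rnf31, encodes the catalytic subunit of the linear ubiquitin chain complex LUBAC. Its 1102 bp peak (chr14:55590719-55591820) was also the broad peak of Psme2 (0.169 kb) and Psme1 (9.74 kb), which encode the proteasome activator PA28. In antigen presentation, 12 of 15 genes had a peak and 3 a broad one, through this peak and an 1115 bp peak 0.358 kb from Psmb10, an immunoproteasome subunit gene. Thus 3 listed genes shared 1 peak.

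Secreted mediators were described next. Of the chemokine genes, 12 of 19 had a peak and only Cxcl1 a broad one (1120 bp, 0.236 kb). Of the cytokine and growth factor genes, 14 of 23 had a peak and none a broad one within 10 kb (0 of 23, which allows a share of up to 13.0%, at 3 counts of the total). Within 50 kb, 3 did. No gene of the matrix remodelling, prostaglandin and acute phase list (9 of 18 with a peak) had a broad peak within 10 kb. The same held for the fibroblast and extracellular matrix list (10 of 20) and the TGF-beta pathway (9 of 18). It also held for the YAP and TEAD targets (7 of 16) and the MAPK phosphatases (6 of 15). Within 50 kb, 3 genes of the TGF-beta pathway, 1 of the matrix remodelling list and 1 of the MAPK phosphatases had one. None of the fibroblast list or the YAP and TEAD targets did. Within 10 kb the background was 1.51% of all genes and 8.58% of peak-bearing genes. A count of 0 or 1 in lists of this size is not distinguishable from it.

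Irf1, an activator of interferon-stimulated genes, had a 1793 bp peak centred 6.50 kb from its end (chr11:53762622-53764414), and Gbp3, a guanylate-binding GTPase gene, an 1166 bp peak at 0.250 kb. On the interferon list, 9 of 20 genes had a peak and 2 a broad one. Of the immediate early genes, 10 of 20 had a peak and 3 a broad one. These were Maff, a small MAF factor (1264 bp, 1.36 kb), Ier5 (1162 bp, 1.29 kb) and Junb, an AP-1 subunit (1105 bp, 7.02 kb). The survival genes with a broad peak were Bcl2l1, which encodes BCL-XL (1147 bp, 2.64 kb), and Ier3 (1178 bp, 8.45 kb), 2 of 14, where 9 had any peak. At both Maff and Bcl2l1 the peak covered an annotated start site inside the gene, with a kappaB match 70 and 242 bases before it. Among surface receptors, 10 of 16 had a peak and only Il4ra a broad one (1137 bp, 1.77 kb).

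The circadian clock list had 10 of 17 genes with a peak and 3 with a broad one, and all 3 encode transcription factors of the clock. Clock, which encodes the activating subunit, had an 1181 bp peak at 0.942 kb that covered a start site. The genes of the REV-ERB repressors, Nr1d2 and Nr1d1, had peaks of 1245 and 1133 bp at 0.223 and 7.93 kb. In the actin and focal adhesion list, 11 of 19 had a peak and 2 a broad one, Peak1 (2015 bp) and Pdlim7 (1198 bp, 2.46 kb). The p53 pathway had 8 of 16 with a peak and 1 with a broad one, the cyclin gene Ccng1 (1258 bp, 0.328 kb). Calcium-NFAT signalling had 6 of 15 with a peak and 1 with a broad one, the NFAT factor gene Nfatc1 (1893 bp). Counts of 1 to 3 in lists of this size were not tested against the 1.51% of all genes or the 8.58% of peak-bearing genes.

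Markers of other cell types had no broad peak within 10 kb. None of 91 marker genes of macrophages, endothelium, epithelium, neurons, hepatocytes and skeletal muscle had one, a count that allows a share of up to 3.30% (3 counts of the total). Within 50 kb, 1 did. A peak of any width lay within 10 kb of 12 of the 91 (13.2%), and of 3650 of all 20665 coding genes on chromosomes 1 to 19. At this number of genes, a count of 0 cannot be told apart from the 1.51% of all coding genes.

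**Figure D5:**
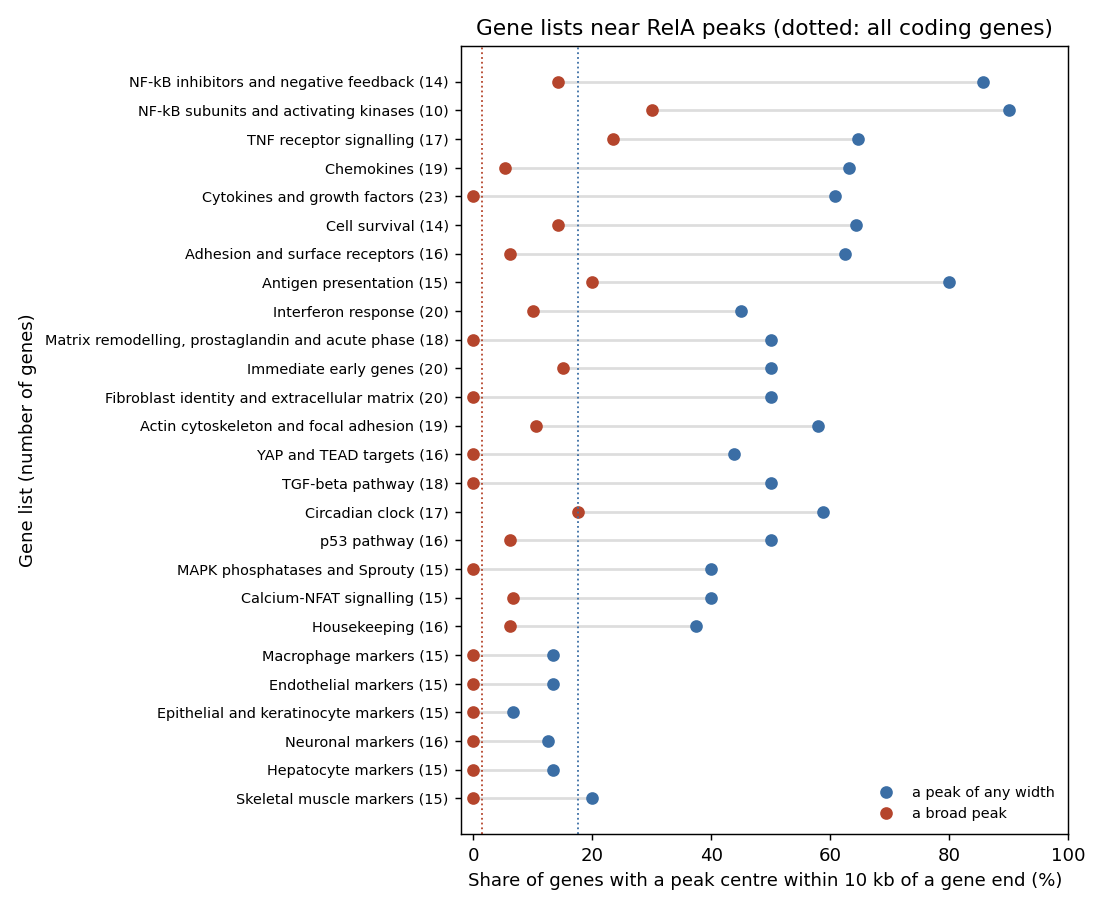
Share of the genes of each list (percent) with a peak centred no more than 10 kb from the gene's ends, for peaks of any width (blue) and broad peaks (red), with the number of genes in brackets. Dotted lines give all coding genes, 1.51% for broad peaks. Subunits and kinases stand highest on both scales, with 9 and 3 of 10 genes.

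The 20 widest peaks fell in 3 settings: 9 at a gene end, 10 inside a gene and 1 between genes. At coding gene ends, the 1678 bp peak at chr16:91405590-91407267 lay 0.272 kb from Il10rb, the shared receptor chain of interleukin-10 family cytokines, and 0.840 kb from the end of the interferon receptor gene Ifnar2. The peaks at Peak1, a scaffold pseudokinase gene, and Zfp62, a zinc finger gene, covered coding start sites and reached 1306 and 875 bp upstream. Slco5a1, a transporter family gene, had a 1672 bp peak at 0.770 kb, and the 1779 bp peak of Prr7 was centred in the gene body at 1.01 kb. Near Aup1 the peak was 1914 bp wide and 0.720 kb away. Aup1 encodes a lipid droplet and ER protein.

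Noncoding gene ends lay under 3 of these peaks. The 1649 bp peak for which Il17b is the nearest coding gene (22.7 kb) was centred 0.335 kb from an end of the long noncoding RNA gene Carmn. The 1759 bp peak nearest to the collagen VI gene Col6a2 lay 0.606 kb from the noncoding gene Gm51774. The Irf1 peak contained the annotated hairpin of Mir7671. Over all 161 broad peaks at gene ends, the nearest end belonged to a protein-coding gene in 120 cases, a long noncoding RNA in 35 and a microRNA in 3. Over 25 kb from coding gene ends were the peaks nearest to the homeobox gene En1 (1685 bp, 150 kb), Dnm3, a dynamin gene (1839 bp, 111 kb), the urea transporter gene Slc14a2 (1747 bp, 91.8 kb), the cell cycle inhibitor gene Cdkn2b (1763 bp, 82.1 kb), the growth hormone receptor gene Ghr (1623 bp, 71.6 kb), the plexin gene Plxna2 (1834 bp, 70.5 kb), the homeobox gene Zfhx3 (1824 bp, 64.5 kb), Igf1 (1837 bp, 63.3 kb) and Jazf1 (1660 bp, 28.9 kb). Of these, the peaks of Dnm3, Slc14a2, Ghr, Plxna2, Zfhx3 and Jazf1 lay inside the named gene. Those nearest to En1 and Cdkn2b lay outside these genes, inside genes that are not protein-coding. The Igf1 peak, near the gene of insulin-like growth factor, was the only one of the 20 between genes.

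Several broad peaks near 1 gene were uncommon. Only 2 protein-coding genes had 3 broad peaks within 50 kb of an end and 55 had 2 or more. The 2 were the neighbours Tnfaip2, named as a TNF-induced gene, and Exoc3l4 on chromosome 12, which shared the same 3 peaks among 5 of any width. The 1915 bp peak (chr12:111429519-111431433) lay 1.20 kb from the end of Exoc3l4. A 1261 bp peak (chr12:111441632-111442892) covered the Tnfaip2 start site, and an 1159 bp peak lay 16.6 kb from the other end of Tnfaip2. Next in order were Lbhd2 at the same place, the pair Ifnar2 and Il10rb with the 1678 bp peak and one of 1388 bp, and Dbn1 (drebrin, an actin-binding protein), Pdlim7 and Prr7 on chromosome 13, which shared peaks of 1779 and 1198 bp. Chd9, a chromatin remodeller gene, had 2 broad among 5 peaks and Gse1 2 among 6.

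MicroRNA hairpins lay within broad peaks in 6 cases (1.22% of broad peaks), and 8 lay within other peaks (0.0870%). A wider peak takes in more sequence, so these shares are not compared. Both genomic copies of miR-199a were among the 6, and they were named after this was seen. Mir199a-2 (chr1:162217814-162217923, plus strand) lies in the 1250 bp peak chr1:162216703-162217952, which also covers the start site of Dnm3os, the noncoding transcript that carries miR-199a and miR-214. That peak is centred 296 bp upstream of the Dnm3os start and 6.04 kb from Mir214, and its window held 0 kappaB matches. Mir199a-1 (chr9:21496495-21496564, minus strand) lies in the 1347 bp peak chr9:21496286-21497632, inside Dnm2. The mature sequences, from RefSeq, are given with the seed (bases 2 to 8) in capitals. The 2 loci give the same products, so the pair is shown once, and the 3p strand of miR-214 has another seed.
miR-199a-5p: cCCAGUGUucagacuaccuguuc
miR-199a-3p: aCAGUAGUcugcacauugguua
miR-214-5p: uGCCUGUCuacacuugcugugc
miR-214-3p: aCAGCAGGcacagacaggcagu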

How the data were processed

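RelA ChIP-seq gave 1 peak list. The deposited values, as the authors made them, are peak positions in base pairs on mm10, with no other measure. The submitters' processing notes name MACS2, Bowtie2 2.3, cutadapt 1.9.1, Picard 1.13, SAMtools and deepTools. Their roles, the peak threshold, the use of input and any pooling: not given in the sources used here. Depth and precision per library are therefore unknown.

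Starts were converted to positions counted from 1. Genes came from a RefSeq table of GRCm38.p6 (47042 on chromosomes 1 to 19, 20665 protein-coding), without strand or exons. RefSeq promoter windows gave strand and sequence for 16457 coding genes, none on chromosome 18. Broad and other peaks were compared in 8 location and motif shares by two-sided Fisher's exact test (SciPy 1.17.1), Benjamini-Hochberg adjusted over the 8, and called at 0.05. Intervals for shares are Wilson 95% intervals and reflect counting error alone. The limit given for a count of 0 is 3 counts of the total. A start-site peak was given its nearest window. The distance functions were tested on simulated peaks. The kappaB consensus is the usual 10-base form with its purine, pyrimidine and A or T positions.

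The members and the 26 gene lists (424 symbols on these chromosomes) were chosen with earlier results of these data known. Named genes are those nearest to the 20 widest peaks, up to 4 per list with a broad peak within 10 kb, the 10 with the most broad peaks within 50 kb, and the nearest to 3 peaks on each side of the width minimum. Other genes were named after their values were seen. A gene from 1 list is left out of the text and not reported here. Alternatives were other width minimums, windows and reference points, neighbouring peaks counted once, coding genes only, wider comparison peaks and a looser motif.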

Additional observations from a re-analysis of the deposited data

How the results depend on the processing

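No paired analysis was possible because the peak list has no values per library. Of 66 recomputed values, 54 kept their direction and their side of the threshold. The higher share of broad peaks at ends of coding genes and of all genes passed Fisher's exact test under every alternative run (odds ratios from 1.88 to 2.81). The share inside genes no longer passed with width minimums of 1200 bp (odds ratio 0.769) and 1400 bp (0.849), nor did the start-site share at 1400 bp (1.99), where 68 peaks were left. The share beyond 100 kb did not pass against peaks of at least the median width (0.788). Among peaks away from gene ends, an alternative chosen after seeing the data, the share inside genes turned to 1.04 and that beyond 100 kb was 0.938, neither passing. The neighbour share passed within 5 kb (0.296) and turned direction within 50 kb (1.03) and against peaks of at least the median width (1.04), without passing. The cause was not tested. The kappaB share turned to 1.02 with the looser motif. Listed genes with a broad peak numbered 29 at 10 kb, 14 at 1 kb and 52 at 50 kb. No peak height or depth was used, so detection limits are unknown.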

Other observations

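Chromosome X, which the width rule left out, held no peak of 1100 bp or more. It had 135 peaks, so a count of 0 allows a share of up to 2.22% (3 counts of the total), against 5.08% on chromosomes 1 to 19. The chromosome was picked after this count was seen and width chose the peaks, so no test is given. Each autosome had some, from 3.60 to 6.60% of its peaks. The widest peak on X was 1099 bp, and its median width was 647 bp against 687 bp on the autosomes. Peaks of 800 bp or more made up 15.6% on X (Wilson 95% interval 10.4 to 22.6%) and 27.7% on the autosomes, and those of 1000 bp or more 2.22% and 8.74%. Unplaced contigs held 2 peaks of 1100 bp or more.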
